A study of Mus musculus with 2 samples.

Results

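Aortic T cells that lacked CD8 transcripts and carried transcripts of the costimulatory receptor gene Tnfrsf4 or of its companions were examined as single cells. The cells were chosen by measured transcripts: each held at least 1 unique molecular identifier (UMI, 1 counted transcript molecule) of Cd3d, Cd3e or Cd3g, none of Cd8a or Cd8b1, and at least 2 in sum of Tnfrsf4, Tnfsf8, Icos, Ctla4 and Cd40lg. Cells with more than 1 UMI of Dntt, Rag1 and Arpp21 (immature lymphocytes), more than 2 of Cd79a, Cd79b and Ms4a1 (B cells), more than 2 of C1qa, C1qb and C1qc (macrophages), any of Cd163l1 and Blk (gamma delta T cells) or more than 2 of Tmem176a and Tmem176b were left out. Of 2957 cells with at least 200 genes and at most 10% mitochondrial UMIs, 152 met the rule. They are called activated cells below, after the genes of the rule. The 252 other CD8-negative T cells met the same limits but held 0 or 1 UMI of the 5 genes.

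All cells came from aortas of C57BL6/J mice that lack apolipoprotein E (ApoE-/-), a strain that develops atherosclerosis, and the lack of Apoe is shared by both groups. The mice were fed a chow diet or WD, as the labels write it. The age of the mice is not given in the labels used here. For each diet, living CD45+ leukocytes of 10 aortas were sorted and pooled into 1 library made with the 10x Genomics 3' v2 chemistry. With 1 library per diet there is no replicate, so no test was made, every difference is one between cells of 2 pools, and the intervals given are 95% intervals that cover counting error only.

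The 5 genes belong to the dialogue between T cells and antigen-presenting cells. Tnfrsf4 encodes OX40, a receptor of the tumour necrosis factor family that T cells display after antigen contact and that is engaged by OX40 ligand. Tnfsf8 (CD30 ligand) and Cd40lg (CD40 ligand) are ligands of the same family, through which helper T cells act on B cells, dendritic cells and macrophages. Icos is a costimulatory receptor of the CD28 family, and Ctla4 is an inhibitory receptor that competes with CD28 for the same ligands. Activated helper T cells and regulatory T cells can both carry these transcripts, and both kinds have been described in atherosclerotic arteries.

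The 63 activated cells of the chow diet library held 253550 UMIs (1574 to 17023 per cell, median 3305), and the 89 of the WD library held 264671 (1443 to 13211, median 2696). The comparison cells were 82 chow diet cells (median 3075 UMIs) and 170 WD cells (median 2753.5). The sequences of 3 barcodes occurred in both libraries, and 0 of these marked an activated cell. Activated cells made up 43.4% of the 145 CD8-negative T cells in the chow diet library (exact interval 35.2 to 51.9%) and 34.4% of 259 in the WD library (28.6 to 40.5%). Of all kept cells they were 7.03% (63 of 896, 5.44 to 8.91%) and 4.32% (89 of 2061, 3.48 to 5.29%). The first pair of intervals overlaps and the second does not. CD8-negative T cells as a whole were 16.2% and 12.6% of kept cells. Both shares depend on where the rule is set: with the 5 genes read after each cell was thinned at random to 1000 UMIs, 14.5% of chow diet and 16.6% of WD CD8-negative T cells met it.

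The genes of the rule were carried unevenly. Tnfrsf4 was found in 31 of 63 activated cells in the chow diet library (93 UMIs) and in 32 of 89 in the WD library (129 UMIs), so in both libraries most cells that met the rule held no Tnfrsf4 UMI. Icos was the most widely found, in 43 and 66 cells (85 and 167 UMIs). Cd40lg was found in 30 and 32 cells (51 and 48 UMIs) and Tnfsf8 in 18 and 29 cells (73 and 109 UMIs). Ctla4 was the least frequent, in 10 and 20 cells (24 and 37 UMIs). Few cells carried the whole set: 16 chow diet and 27 WD cells held 1 of the 5 genes, 31 and 38 held 2, 11 and 21 held 3, and 1 cell in each library held all 5. Icos was the only one of the 5 in 12 and 20 cells, and Tnfrsf4 and Tnfsf8 met in 13 and 14 cells. The median sum of the 5 genes was 4 UMIs in both libraries, with a highest value of 29 in the chow diet and 37 in the WD library.

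**Figure D1:**
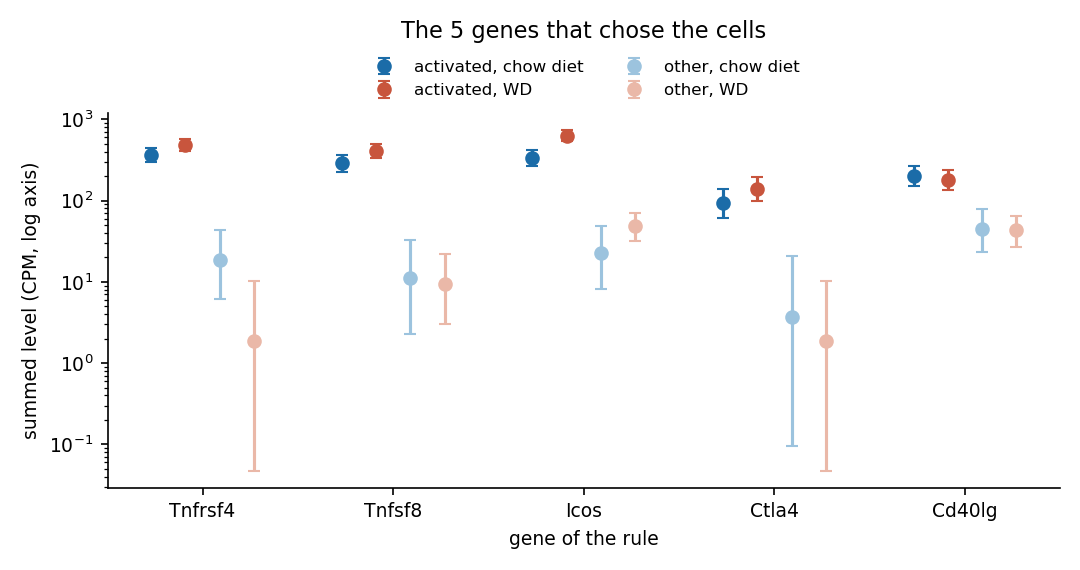
Summed level of the 5 genes of the rule in CPM (UMIs scaled to 1000000 UMIs of the class, log axis), by class of CD8-negative T cells and by library, with exact 95% Poisson intervals. The activated cells lie above the other cells for all 5 genes because these genes chose them; Cd40lg is nearest between the classes.

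In CPM, the UMIs of a gene scaled to 1000000 UMIs of the class, Tnfrsf4 stood at 367 in chow diet and 487 in WD activated cells (WD over chow diet ratio 1.33, 1.01 to 1.75). Icos stood at 335 and 631, a ratio of 1.88 (1.44 to 2.47). Tnfsf8 stood at 288 and 412 (ratio 1.43, 1.05 to 1.95), and Cd40lg at 201 and 181 (0.902, 0.595 to 1.36). The ratio for Ctla4 was 1.48 (0.860 to 2.58). These are values of the genes that chose the cells, so the ratios describe the chosen cells and nothing further is read from them.

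The ligands and receptors that pair with the 5 genes had few UMIs in the activated cells themselves and more in other leukocytes. OX40 ligand (Tnfsf4) was rare everywhere, with 3 UMIs in all 896 chow diet cells and 12 in all 2061 WD cells, and CD30 (Tnfrsf8) had 10 and 25. Among B cells, 10.4% (chow diet) and 9.31% (WD) held Cd40, the receptor of CD40 ligand, as did 25.8% and 23.4% of cells rich in C1q. Among the activated cells it was found in 2 of 63 and 0 of 89. Icosl, the ligand of Icos, was found in 14.2% and 9.31% of B cells and in 1 and 2 activated cells. Cd86, a shared ligand of Ctla4 and Cd28, was found in 58.2% and 44.1% of B cells and in 2 and 3 activated cells.

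Genes outside the rule were read along the sum of the 5 genes, since the rule cuts that sum at 2 UMIs. The summed level of 20 naive and central memory genes (among them Ccr7, Lef1, Tcf7 and Klf2) was 4640, 4502, 4482, 2546 and 1466 CPM in chow diet cells with a sum of 0, 1, 2, 3 to 4 and 5 or more. In the WD library the same series was 3558, 5251, 4294, 3348 and 2339 CPM. The chow diet level just inside the rule (sum 2, 21 cells) thus lay within the interval of the level just outside (sum 1, 27 cells), and lower levels began at a sum of 3. The 21 effector memory genes (among them Crip1, S100a4, Lgals1 and Itgb1) gave 5643, 4706, 4737, 11608 and 14545 CPM in the chow diet library. WD cells gave 7838, 3927, 7304, 9010 and 9233 CPM, with a level at a sum of 0 above that at a sum of 2. A Cd4 UMI was found in 34.5, 33.3, 19.0, 60 and 63.6% of chow diet cells and in 19.3, 39.3, 41.4, 37.0 and 48.5% of WD cells along the same steps.

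**Figure D2:**
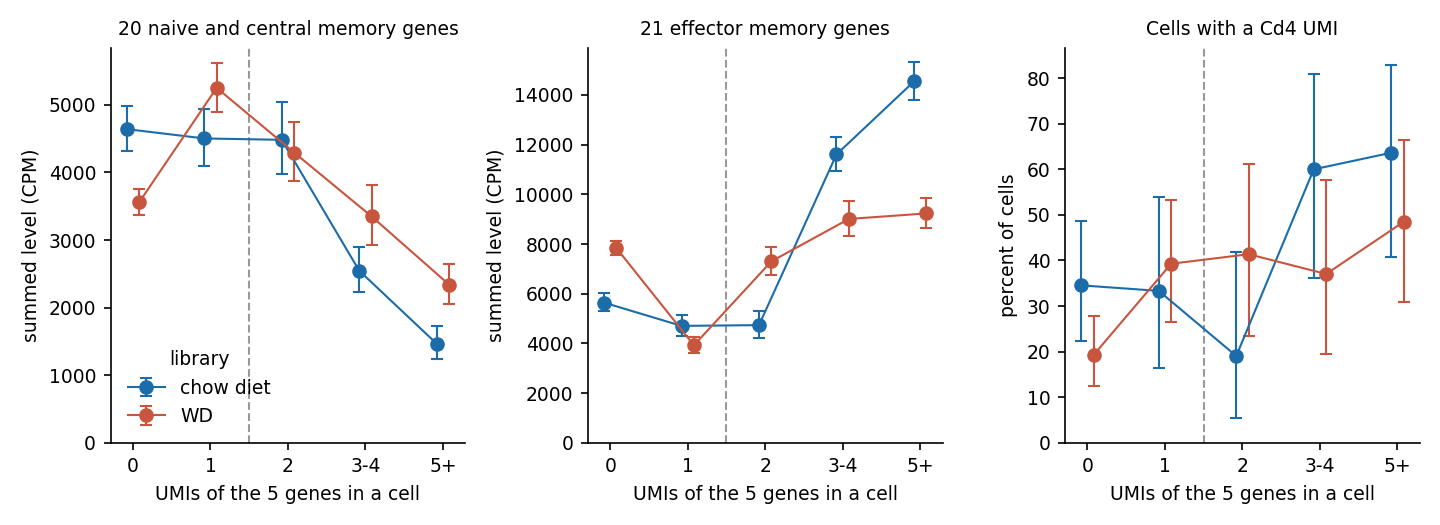
Naive and central memory genes (left, CPM), effector memory genes (middle, CPM) and percent of cells with a Cd4 UMI (right), by the UMIs of the 5 genes in a cell, for both libraries; bars are exact 95% intervals of counting error and the dashed line is the limit of the rule. The naive genes are lowest and the effector genes highest at 5 or more UMIs in both libraries, and the effector level there is higher in the chow diet than in the WD library.

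The label of these cells was checked against T cell markers that were not part of the rule. Of the chow diet activated cells 47.6% held a Cd4 UMI (30 of 63, 34.9 to 60.6%), and of the WD activated cells 42.7% did (38 of 89, 32.3 to 53.6%). In the other CD8-negative T cells the shares were 34.1% and 25.9%, and in B cells, which should lack Cd4, 2.24% and 0.607% at median depths of 2823.5 and 2459.5 UMIs. After thinning to 1000 UMIs, 19.0% and 18.0% of activated cells held a Cd4 UMI. A cell without a Cd4 UMI is not shown to lack CD4 at this depth, and the CD4 lineage of the remaining cells was not tested. Of 13 measured genes of T cell identity outside the rule, such as Cd28, Lat, Lck and Cd5, 11 were higher in activated than in other cells in both libraries and 0 lower in both. The medians of their log2 ratios were 0.23 (chow diet) and 0.61 (WD), against 0.12 and 0.10 over all measured genes. Of all 2891 measured genes, 1131 were higher and 575 lower in both libraries. Under the other settings the mean of the 2 list medians, 0.42 here, ranged from 0.04 to 0.48.

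Markers of other leukocytes were present in the activated cells, at levels that differed by cell type. Of 12 markers of group 2 innate lymphoid cells, tissue lymphocytes that lack a T cell receptor, 10 were detected in chow diet and 6 in WD activated cells, at 525 and 170 CPM in sum against 829 and 259 CPM in the other cells. At least 2 UMIs of Il5, Il13, Il1rl1, Calca, Arg1 and Csf2 were found in 7 of 63 and 4 of 89 activated cells, of which 1 and 0 held a Cd4 UMI, and in 6 of 82 and 3 of 170 other cells. Cells with these UMIs were thus a larger share of the activated cells in both libraries, while the summed marker level was higher in the other cells. Of 12 monocyte and dendritic cell markers 12 and 10 were detected, at 3763 and 1882 CPM in sum against 3664 and 4742 CPM in the other cells. Among the activated cells, 1 chow diet cell held 528 of the 954 UMIs and 1 WD cell 364 of 498. At least 3 UMIs of these 12 markers were found in 16 of 63 and 13 of 89 activated cells (25.4% and 14.6%). The shares in the other cells were 18.3% and 23.5%. At least 3 UMIs of 7 myeloid genes (Lyz2, Fcer1g, Tyrobp, Cd14, Csf1r, S100a8 and S100a9) were found in 4 of 63 and 4 of 89 activated cells but in 10 of 82 and 25 of 170 other cells. Neutrophil markers reached 7.89 and 18.9 CPM in activated cells against 1976 and 2174 CPM in the other cells, where 1 cell of each library held 526 of 529 and 1082 of 1166 UMIs. Natural killer cell markers stood at 74.9 and 64.2 CPM against 224 and 270 CPM, with Klra8 and Klra4 at 0 in the activated cells. By neutrophil and natural killer markers and by cells with myeloid UMIs, the comparison cells were more mixed than the activated cells, but not by monocyte and dendritic markers in the chow diet library or by cells with innate lymphoid UMIs. The part of these cells in the comparison below was not tested beyond leaving out those rich in myeloid UMIs.

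Against the other CD8-negative T cells, the activated cells carried more transcripts of costimulation genes and fewer of naive T cell genes and killer cell genes. Among 2891 measured genes (at least 20 UMIs in each library over both classes, genes of the rule left out), 35 were at least 2-fold higher in both libraries (1.21%) and 21 at least 2-fold lower in both (0.726%). Scaled to UMIs outside ribosomal protein and mitochondrial genes, which moved the median of all genes by -0.10 and -0.09 on the log2 scale, the counts were 26 and 29. Without the cells rich in myeloid UMIs they were 51 and 7. With a Cd4 UMI required in both classes (30 and 38 activated, 28 and 44 other cells) they were 41 and 6. Of those genes, 14 and 2 were among the 35 and 21. These are the cells the rule separated, so the values describe the cells it picked and nothing is read from the counts.

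Among signalling molecules and receptors, Tnfsf11 (RANKL, a ligand of the tumour necrosis factor family) held the first rank of the genes higher in activated cells. It had 20 UMIs in 15 activated and 4 UMIs in 1 other cell of the chow diet library, and 16 UMIs in 9 activated and 4 UMIs in 4 other cells of the WD library. The ratios were 5.28 (1.77 to 21.2) and 8.11 (2.62 to 33.3). Pdcd1, which encodes the inhibitory receptor PD-1, stood at 126 CPM in activated and 37.3 CPM in other chow diet cells, and at 113 and 24.2 CPM in WD cells. Its ratios were 3.38 (1.62 to 7.71) and 4.68 (2.37 to 9.77), and 23.8% and 23.6% of activated cells held a Pdcd1 UMI against 6.10% and 4.12% of other cells. Thinned to 1000 UMIs, the shares were 12.7% and 8.99% against 4.88% and 2.94%. Their intervals overlapped in the chow diet (5.65 to 23.5% and 1.34 to 12.0%) and in the WD library (3.96 to 16.9% and 0.962 to 6.73%). Tnfrsf9 (4-1BB, a costimulatory receptor) was at ratios of 2.29 (1.11 to 4.98) and 4.42 (2.09 to 10.0), with 18 of its 26 chow diet UMIs in 1 cell. Adora2a, an adenosine receptor that dampens T cells, was at 2.99 (1.13 to 9.27) and 2.59 (1.34 to 5.09). Of all 2891 measured genes, 1131 were higher and 575 lower in both libraries, the background for each list below. The costimulation list as a whole had 12 measured genes, of which 10 were higher in both libraries and 3 past 2-fold (Tnfrsf9, Tnfsf11 and Slamf1), with medians of 0.59 and 0.75.

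Transcription factors of effector T cells were also higher. Maf, a factor of helper T cells that make interleukin 10 or interleukin 21, had 34 UMIs in 17 chow diet and 48 in 25 WD activated cells. The other cells had 10 UMIs in 7 cells and 12 in 9 cells. Its ratios were 3.59 (1.73 to 8.15) and 8.11 (4.24 to 16.8). Thinned to 1000 UMIs, 7.94% and 15.7% of activated cells held a Maf UMI against 4.88% and 3.53% of other cells. The 2 chow diet intervals overlapped (2.63 to 17.6% and 1.34 to 12.0%). Rora, a nuclear receptor active in several effector lineages, stood at 304 CPM against 127 in the chow diet library and at 291 against 74.6 in the WD library, ratios of 2.39 (1.58 to 3.69) and 3.90 (2.63 to 5.87). Batf, a partner of the AP-1 factors after antigen contact, had ratios of 2.68 (1.37 to 5.55) and 2.09 (1.23 to 3.58). Nfatc1, the calcium-dependent factor NFATc1, had 2.02 (0.967 to 4.46) and 2.53 (1.25 to 5.23), the first with an interval that holds 1. Nr4a3 and Bhlhe40, both induced through the T cell receptor, were higher mainly in the chow diet library: 4.09 (1.84 to 10.3) against 1.15 (0.675 to 1.92) for Nr4a3, and 3.43 (2.15 to 5.67) against 1.74 (1.28 to 2.35) for Bhlhe40. Of 14 measured genes of the T cell receptor response 11 were higher in both libraries, and of 14 NF-kappaB and TRAF genes 12 were, with medians of 0.61 and 0.59 and of 0.70 and 0.33. Traf1, an adapter below receptors such as OX40, was the only one of the latter past 2-fold in both, at 2.07 (1.24 to 3.54) and 2.29 (1.64 to 3.20).

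Other genes named as higher had varied roles. Odc1, the first enzyme of polyamine synthesis, stood at 647 CPM in activated and 239 CPM in other chow diet cells and at 533 and 151 CPM in WD cells, ratios of 2.71 (2.02 to 3.67) and 3.53 (2.67 to 4.70). Bcl2a1b and Bcl2a1d, relatives of the survival gene Bcl2, were at 3.37 and 3.59 and at 2.52 and 3.42; they are near-identical copies among which reads may be shared, so the split between them is uncertain. Lmna (lamin A/C, a protein of the nuclear envelope) was at 4.22 (2.15 to 9.07) and 3.29 (1.93 to 5.73). Tbc1d4, a regulator of vesicle traffic, was at 2.82 (1.26 to 6.88) and 8.98 (3.88 to 24.2), Crbn, a substrate receptor of a ubiquitin ligase, at 2.77 and 4.48, and Smco4 at 4.22 and 4.41. Cxcl10, a chemokine that attracts cells with CXCR3, had 27 UMIs in activated and 0 in other chow diet cells, at least 9.50-fold higher against a floor of 3 counts over the class, with an exact interval from 7.21 upward, but 19 of the 27 lay in 1 cell. The remaining named genes, Rrad, Gna15, Jak2, Nmrk1, Gabpb1 and Bcl7c, had ratios between 2.41 (Bcl7c, WD) and 11.1 (Nmrk1, chow diet). In these genes the 2 libraries, made from separate pools, lay on the same side of 1 by the way they were chosen.

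**Figure D3:**
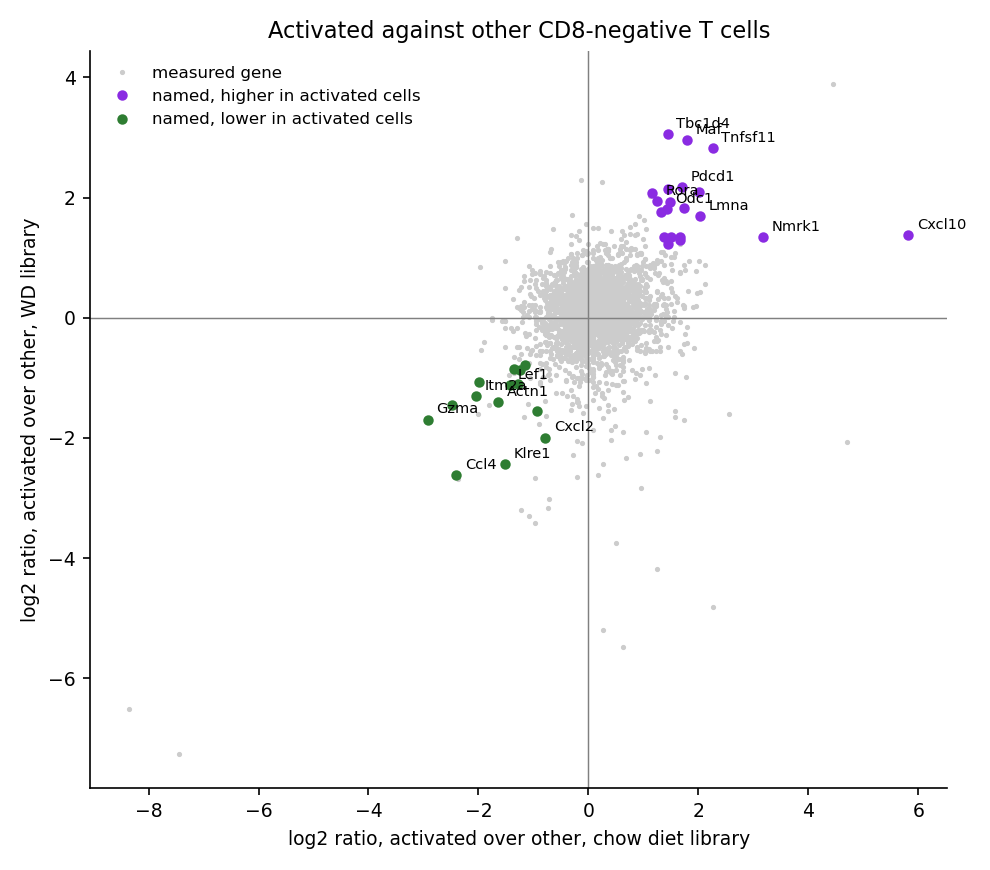
Log2 ratio of activated over other CD8-negative T cells in the chow diet library (horizontal) and in the WD library (vertical) for 2891 measured genes outside the rule (grey), with 0.5 UMIs added; the 20 genes named as higher and 14 named as lower are coloured. Maf, Tnfsf11, Pdcd1 and Lmna lie up and right, Lef1, Gzma and Ccl4 down and left, and Cxcl10, at 0 UMIs in other chow diet cells, lies far right.

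Naive T cell genes were lower in activated cells. Lef1, a transcription factor of naive T cells, stood at 201 CPM against 545 CPM in other cells of the chow diet library and at 208 against 453 CPM in the WD library, ratios of 0.369 (0.263 to 0.511) and 0.459 (0.336 to 0.617). Actn1 was at 0.311 and 0.371, Dapl1 at 0.404 and 0.464, and Satb1, a chromatin organiser of T cells, at 0.389 and 0.638. Klf2, a factor that keeps T cells in circulation, differed between the libraries, at 0.540 (0.436 to 0.667) in the chow diet and 1.07 (0.909 to 1.26) in the WD library. Of 15 measured naive and central memory genes 11 were lower in both libraries and 2 higher, with medians of -0.89 and -0.46. Il7r, the interleukin 7 receptor, was a member of this list with log2 ratios of 0.33 and 0.68. With a Cd4 UMI required the mean ratio of Lef1 over both libraries was -2.33 on the log2 scale, further from 0 than over all cells (-1.27).

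Effector memory genes were higher, most of all in the chow diet library. Crip1 stood at 2808 CPM against 1225 in the chow diet and at 1723 against 975 in the WD library, ratios of 2.29 (2.01 to 2.62) and 1.77 (1.56 to 2.01). Lgals1 (galectin 1) was at 2.59 (2.09 to 3.23) and 1.84 (1.55 to 2.19), and S100a10 at 2.30 (1.85 to 2.88) and 1.81 (1.51 to 2.16). S100a4 was at 3.95 (2.70 to 5.92) in the chow diet but 1.33 (1.01 to 1.74) in the WD library, and the filament gene Vim at 2.66 (2.02 to 3.54) and 0.817 (0.664 to 1.00). Of 21 measured genes 13 were higher in both libraries and 1 lower, with medians of 1.02 and 0.35. Myeloid cells also carry several of these genes, and the WD comparison cells were the richest in myeloid UMIs. Without such cells the mean of both libraries' medians was 1.23, and with a Cd4 UMI required 1.32, against 0.69 over all cells.

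Killer cell genes were lower, but this rested on part of the comparison cells. Gzma, a granule protease, had 10 UMIs in 3 activated and 83 in 6 other chow diet cells, and 24 UMIs in 5 activated and 159 in 11 other WD cells. Its ratios were 0.127 (0.0588 to 0.246) and 0.306 (0.190 to 0.472). Ccl4, an inflammatory chemokine, was at 0.182 and 0.161, with 43 of 58 and 123 of 315 UMIs of the other cells in 1 cell each. The receptor genes Klre1 and Klrd1 were at 0.330 and 0.172 and at 0.238 and 0.473. With a Cd4 UMI required in both classes, the mean log2 ratio of Gzma went from -2.30 to 0.08 and that of Ccl4 from -2.51 to -0.08. Without the cells rich in myeloid UMIs, 7 genes were at least 2-fold lower in both libraries: Actn1, Dapl1, Il5, Itm2a, Lef1 and Mfap1b, which were among the 21, and Txnip, which was not. Plac8 and the chemokine Cxcl2 also stood lower (0.519 and 0.339, and 0.580 and 0.250), each with an average above 0 on the log2 scale when at least 3 Cd3 UMIs were required.

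Of the transcription factors that define helper lineages, Gata3 was the most widely found, and Tbx21, Foxp3 and Bcl6 were sparse. Gata3, the factor of T helper 2 cells and of group 2 innate lymphoid cells, was carried by 36.5% of the chow diet (23 of 63, 24.7 to 49.6%) and 22.5% of the WD activated cells (20 of 89, 14.3 to 32.6%). Other cells held it in 25.6% and 12.9%, and B cells in 0.746% and 0%, the latter 0 of 494, which allows up to 0.607% of cells with a UMI by a limit of 3 counts (exact upper bound 0.744%). Thinned to 1000 UMIs, 25.4% and 11.2% of activated cells held Gata3 against 9.76% and 5.29% of other cells. Cells with at least 2 of the innate lymphoid UMIs above held 22 of the 56 Gata3 UMIs in the chow diet and 13 of 36 in the WD library. Tbx21, the factor of T helper 1 cells, was found in 8 of 63 and 7 of 89 activated cells (12.7% and 7.87%) and in 6.10% and 4.12% of other cells. Foxp3, which defines regulatory T cells, was found in 2 of 63 and 3 of 89 activated cells (3 and 4 UMIs) and in 0 of 82 and 0 of 170 other cells, which allow up to 3.66% and 1.76% of cells with a UMI by the limit of 3 counts (exact upper bounds 4.40% and 2.15%). Bcl6, the factor of follicular helper T cells, was found in 3 and 3 activated cells and in 2 of 82 and 7 of 170 other cells. Of these 4 factors 31 of 63 chow diet and 61 of 89 WD activated cells held none, and 4 chow diet and 5 WD cells held 2.

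**Figure D4:**
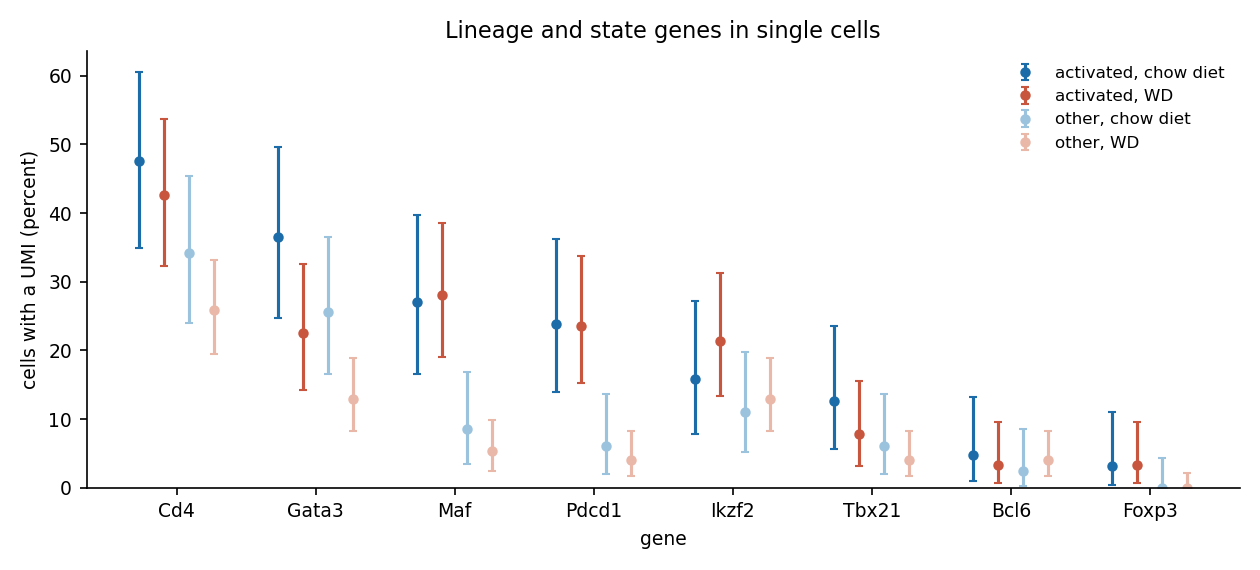
Percent of cells with at least 1 UMI of Cd4, of 4 lineage factors (Gata3, Tbx21, Bcl6, Foxp3) and of Maf, Pdcd1 and Ikzf2, in activated and other CD8-negative T cells of both libraries, with exact 95% binomial intervals. Without thinning, Maf and Pdcd1 lie between 23.6% and 28.1% in activated cells of both libraries and between 4.12% and 8.54% in the other cells. Foxp3 lies near 0 in all 4 classes.

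Among products of these lineages, Ifng and Il10 were found in fewer activated cells than the receptor genes Cxcr3 and Cxcr6. Cxcr3 was found in 33.3% and 21.3% of activated and in 14.6% and 8.24% of other cells. For Cxcr6 the shares were 28.6% and 34.8% against 18.3% and 14.7%. Ifng was found in 8 of 63 and 14 of 89 activated cells (14 and 26 UMIs). In the other cells it was found in 9 of 82 and 15 of 170. Cxcr3, a chemokine receptor of T helper 1 cells, was at ratios of 2.04 (1.06 to 4.10) and 3.15 (1.68 to 6.05) over other cells, and Cxcr6, a receptor of tissue T cells, at 1.54 (0.966 to 2.47) and 2.74 (1.92 to 3.93). Il17a, Il17f and Il22 were at 0 UMIs in both classes of both libraries. Il10 had 15 UMIs in 3 WD activated cells, of which 0 held Foxp3 and 2 held Cd4, and 0 UMIs in chow diet activated cells and in the other cells. Of genes used to mark regulatory T cells, 10 were measured, 8 were higher in both libraries and 2 of these past 2-fold (Tnfrsf9 and Capg), with medians of 0.76 and 0.88. Ikzf2 (Helios) was found in 15.9% and 21.3% of activated cells, at ratios of 1.25 (0.726 to 2.17) and 1.84 (1.17 to 2.89), and Tnfrsf18 (GITR) was at 1.70 (1.08 to 2.70) and 2.87 (2.01 to 4.14). Foxp3 and Ikzf2 met in 1 cell of each library. Cxcr5, the receptor by which follicular helper T cells enter B cell follicles, was at 0 UMIs in activated cells of both libraries, while Pdcd1 and Maf met in 9 cells of each.

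Other gene lists are given by counts and medians, and several of the counts lie near the share over all genes, 1131 of 2891. Of 9 tissue-resident memory genes 7 were higher in both libraries (medians 0.58 and 0.42), of 7 follicular helper genes 4 (0.75 and 0.81), of 9 T helper 1 genes 5 (0.36 and 0.71), and of 4 T helper 17 genes 2 (0.36 and 0.84, Rora and Batf). Of 6 T helper 2 genes 1 was higher and 2 were lower in both (-0.06 and 0.10), and Il5, with 18 and 10 UMIs in 3 and 2 activated cells, was below 0.5 in both. Of 3 measured inhibitory receptor genes 3 were higher (0.85 and 1.56), 9 of 15 homing receptor genes were (0.45 and 0.15) and 5 of 6 proliferation genes were (0.59 and 0.59). Interferon response genes (5 of 9 higher, 0.36 and 0.26), glycolysis genes (5 of 8, 0.24 and 0.12) and early genes that tissue digestion can induce (7 of 16, 0.37 and 0.18) lay nearer to the medians of all genes, 0.12 and 0.10. The 9 measured cytotoxic genes had 0 higher and 5 lower in both libraries (-0.77 and -0.40).

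Between the diets, activated cells of the WD library held more transcripts of the chemokine gene Ccl5 and of some naive T cell genes, and fewer of some effector memory and myeloid genes. Of 3046 genes with at least 20 UMIs in activated cells of both libraries together, 132 were at least 2-fold higher in WD (4.33%) and 122 at least 2-fold lower (4.01%). With at least 50 UMIs required, 16 were higher and 31 lower. The diet was not part of the rule, but each diet is 1 pool, so diet and library cannot be told apart. Apart from Ccl5, the genes named as higher had at most 39 UMIs in a library.

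Ccl5 had 317 UMIs in 22 of 63 chow diet activated cells and 1031 UMIs in 33 of 89 WD cells. These are 34.9% and 37.1% of cells, so the share of cells with Ccl5 was about equal while the summed level stood at 1250 and 3895 CPM, a ratio of 3.12 (2.74 to 3.54). At least 10 Ccl5 UMIs were found in 11 chow diet and 23 WD cells, and the highest cells held 55 and 192. A Ccl5 UMI and a Cd4 UMI met in 12 and 18 cells. In the other CD8-negative T cells the level was 4668 CPM in the chow diet and 5145 in the WD library (log2 ratio 0.14), and 13.4% and 7.89% of B cells held a Ccl5 UMI, with a median of 1 UMI in those cells. The log2 ratio in activated cells was 1.64. It was 1.62 without the cell richest in Ccl5 in each library, 1.36 without cells rich in myeloid UMIs and 2.10 among cells with a Cd4 UMI. Of 8 measured cytotoxic genes, Ccl5 among them, 7 were higher in WD activated cells and 5 past 2-fold, with a median of 1.07 against 0.03 over all genes. The other 4 past 2-fold, Gzma, Gzmb, Gzmk and Klrd1, had at most 24 UMIs in a library.

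The other genes named as higher in WD included several receptor genes. Il18r1, a receptor chain for interleukin 18, had 6 UMIs in 5 chow diet and 23 in 18 WD activated cells (ratio 3.67, 1.45 to 11). Nr1h2, which encodes the oxysterol receptor LXR beta, had 6 UMIs in 6 cells and 26 in 25 cells (4.15, 1.67 to 12.3), and thinned to 1000 UMIs its log2 ratio went from 1.97 to 0.28. Serpinb9, an inhibitor of granzyme B, had 12 UMIs in 7 cells and 39 in 16 (3.11, 1.60 to 6.53). Il1r2, a decoy receptor for interleukin 1, had 5 UMIs in 1 cell and 22 in 6 cells (4.22, 1.56 to 14.2). Its 1 chow diet cell was rich in myeloid UMIs, so without such cells 0 chow diet UMIs were left and no ratio is given. Top2a, a gene of dividing cells, had 5 UMIs in 4 cells and 27 in 9 cells (5.17, 1.96 to 17.2), with 12 of the 27 in 1 cell. Faf1, Bfar, Srsf4, Naa20 and 5430421N21Rik were named as well, with ratios from 3.26 (Naa20) to 7.34 (5430421N21Rik) and at most 23 UMIs in the WD library.

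The naive and central memory list had 14 measured genes, of which 12 stood higher in WD and 0 past 2-fold (median 0.27), where 1602 of all 3046 measured genes stood higher and 1444 lower. Klf2 stood at 532 CPM in chow diet and 865 CPM in WD activated cells (ratio 1.63, 1.31 to 2.03), and Ccr7, the lymph node homing receptor, at 185 and 340 CPM (1.83, 1.28 to 2.67). Before thinning, neither gene was more widespread among the WD activated cells. Klf2 UMIs were held by 58.4% of these cells against 66.7% in chow diet, and Ccr7 UMIs by 27.0% against 34.9%. The intervals of each pair of shares overlapped. After thinning to 1000 UMIs, the Ccr7 shares were 15.7% (WD) and 12.7% (chow diet), also with overlapping intervals. Of 21 effector memory genes 3 were higher and 18 lower, 2 past 2-fold (median -0.24). Crip1 was at a ratio of 0.614 (0.544 to 0.691), S100a4 at 0.680 (0.516 to 0.894) and Vim at 0.703 (0.559 to 0.882). Thinned to 1000 UMIs per cell, the medians of the naive and effector lists were 0.02 and 0.00, against -0.01 over all genes, so both lay near 0. The median depth was higher in chow diet than in WD activated cells, 3305 against 2696 UMIs, and its part in these medians was not tested beyond thinning.

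Of the 12 genes named as lower in WD, several are known from myeloid cells and rested on few cells, while others did not. Lyz2 (lysozyme) had 127 UMIs over 11 chow diet cells, 98 of them in 1 cell, against 24 UMIs over 8 WD cells. Irf8 and Naaa had 37 and 36 UMIs in 6 chow diet cells each, 24 and 23 of them in 1 cell, and 5 and 4 UMIs in the WD library. Tyrobp had 54 and 10 UMIs, Alox5ap 48 and 10, and Ctsh 23 and 6. Without the 4 and 4 cells rich in myeloid UMIs the log2 ratio of Naaa went from -3.08 to -0.17, of Irf8 from -2.83 to -0.93, of Lyz2 from -2.44 to -0.89 and of Pepd from -2.10 to -0.48. Tyrobp stood at -2.41 and Alox5ap at -2.41 without them. Tyrobp is among the genes that chose those cells, so each cell left held fewer than 3 of its UMIs. The UMIs left of either gene are not given here. Both ratios may depend on the 0.5 UMIs added, so nothing is read from them. Anxa1, which encodes the lipid-binding annexin A1, had 28 UMIs (11 cells) in the chow diet and 4 UMIs (4 cells) in the WD library, a ratio of 0.137 (0.0349 to 0.391), and -2.14 on the log2 scale without the myeloid-rich cells. Mafg, Ptpre and Nme2 had 17, 18 and 23 UMIs in 13, 14 and 14 chow diet cells and 3, 4 and 6 UMIs in the WD library, and no cell held more than 3 of them. Gm26917 was at 0.233 (0.149 to 0.355) and stood as far apart in the other CD8-negative T cells (log2 ratio -2.08 in activated and -1.97 in other cells).

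**Figure D5:**
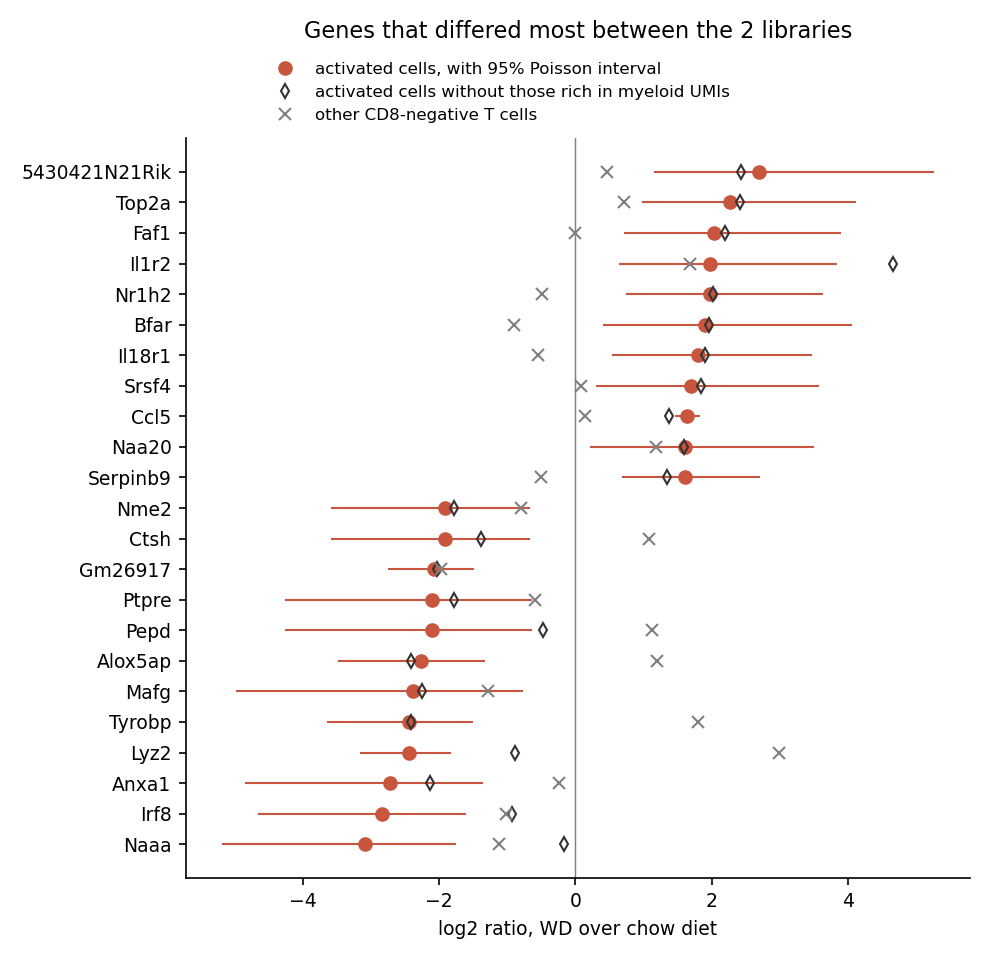
Log2 ratio of WD over chow diet for the 23 genes named in this comparison: activated cells with 95% Poisson intervals (red), activated cells without those with at least 3 myeloid UMIs (diamonds) and other CD8-negative T cells (crosses). Ccl5 has the narrowest interval. Naaa, Irf8 and Pepd move toward 0 without the myeloid-rich cells, as does Lyz2, which is among the genes that chose those cells. Tyrobp is among those genes as well. The diamond of Il1r2 stands against 0 chow diet UMIs and depends on the 0.5 UMIs added.

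Gata3 was lower in WD activated cells, with 56 UMIs in the chow diet and 36 in the WD library (221 and 136 CPM, ratio 0.616, 0.394 to 0.953). The other CD8-negative T cells went the same way, at 116 and 78.3 CPM. Some secreted products came from single cells. All 41 Ccl1 UMIs of the chow diet activated cells lay in 1 cell and all 31 Csf2 UMIs in 2 cells, while the WD activated cells held 0 of either. The cytokine gene Tnf had 13 UMIs in 6 chow diet and 7 in 5 WD activated cells. Maf, Pdcd1, Tnfsf11, Rora and Lmna, which set activated cells apart from other cells in both libraries, had WD over chow diet intervals that held 1 (Maf 0.854 to 2.16, Pdcd1 0.527 to 1.53, Tnfsf11 0.371 to 1.56, Rora 0.689 to 1.33, Lmna 0.537 to 1.34).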

How the data were processed

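The deposited files hold UMI counts per gene and cell barcode, not normalized. The submitters' processing notes name Cell Ranger, STAR and the build mm10, without versions. Of 2986 barcodes, 2 with under 200 genes and 27 with over 10% mitochondrial UMIs were removed. No doublet caller was run; the rule's limits on other lineages stood in its place. UMIs were summed per library and class and scaled to CPM. Ratios carry exact conditional 95% Poisson intervals; log2 ratios had 0.5 UMIs added, scaled by the class total. Shares carry exact (Clopper-Pearson) 95% intervals. Thinning drew 1000 UMIs per cell at random. The report gives the depth of each class, which sets the precision.

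The genes named were the 5 genes of the rule with their partners, Cd4 and lineage factors; the first 20 higher and 15 lower against other cells among genes whose interval excluded 1 alike in both libraries, with a UMI in at least 5 cells of the higher class, ranked by the smaller ratio; the first 12 each way between diets, ranked by ratio, whose interval excluded 1 and whose direction held without the cell richest in UMIs; and up to 6 members of each of 23 gene lists. Il10, Ccl1, Csf2, Tnf, Vim and some further list members were picked after their values were seen. A few genes that meet these rules are not reported here. The members, lists and settings were chosen with earlier results of these data known. Symbols, given in capitals in the files, were matched by gene ID for 27645 of 27998 genes. Python 3.11.15, numpy 2.4.6, scipy 1.17.1 and pandas 2.3.3 were used, and the ratio and thinning code was tested on simulated data.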

Additional observations from a re-analysis of the deposited data

Results flagged for a closer look

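The genes named between the diets and further genes picked for the text were searched for opposite directions. In 6 of them the WD over chow diet ratio went one way in activated cells and the other way in the other CD8-negative T cells. Both intervals were off 1. The remaining measured genes were not searched, so 6 is not a count over all genes. The difference itself was not tested, with 1 library per diet. The log2 ratios in activated and in other cells were 0.70 and -0.29 for Klf2, -0.55 and 1.01 for S100a4, -2.44 and 2.98 for Lyz2, -2.44 and 1.80 for Tyrobp, -2.27 and 1.19 for Alox5ap, and -1.91 and 1.07 for Ctsh. Klf2 was found in 42 chow diet and 52 WD activated cells (66.7% and 58.4%), with at least 10 UMIs in 1 and 6 cells. S100a4 was found in 29 and 39 activated cells (46.0% and 43.8%), with at least 10 UMIs in 3 and 0. In the other cells S100a4 was found in 22.0% and 18.2%, with at least 10 UMIs in 0 and 7 cells. A few rich cells thus weigh on the ratios of both genes. Lyz2, Tyrobp, Alox5ap and Ctsh are myeloid genes, and 25 of 170 WD comparison cells held at least 3 myeloid UMIs against 4 of 89 WD activated cells.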

How the results depend on the processing

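The results were recomputed under 14 listed settings and 1, leaving out cells with 3 or more myeloid UMIs, added after the data were seen. No paired analysis was possible because each diet has 1 library. Shares of CD8-negative T cells (chow diet, WD) were 62.1% and 56.0% at a sum of at least 1 and 29.0% and 23.2% at 3, 14.5% and 16.6% with the sum read at 1000 UMIs, and 46.3% in WD with a Cd4 UMI required. The shares of kept cells in the same 4 settings were 10.0% and 7.04%, 4.69% and 2.91%, 2.34% and 2.09%, and 3.35% and 1.84%. Genes at least 2-fold higher in activated cells, 35 in the report, were 22 at a sum of at least 1 and 10 both when thinned and with at least 50 UMIs. Of these genes, 14, 3 and 10 in that order were among the 35, so most of the thinned list was other genes. Genes at least 2-fold lower, 21 in the report, were 13 with at least 3 Cd3 UMIs, 6 with a Cd4 UMI required, 10 when thinned, 32 without the top cell of each gene, 9 with at least 50 UMIs and 7 without myeloid-rich cells. In that order, 7, 2, 6, 17, 9 and 6 of them were among the 21. Between diets, 132 higher and 122 lower became 36 and 41 when thinned and 16 and 31 with at least 50 UMIs, and 66 were higher with a Cd4 UMI required. The naive median was -0.14 at a sum of at least 1, and the effector median 1.32 with a Cd4 UMI required and 1.23 without myeloid-rich cells. Thinning and the minimum of 50 leave fewer genes measured; the cause of the other moves was not tested. Of 59 named genes, 6 changed direction: Rrad (-0.17 at a sum of at least 3), Gzma (0.085), Pglyrp1 (1.52) and Plac8 (0.84) with a Cd4 UMI required, Plac8 (0.77) and Cxcl2 (1.02) with at least 3 Cd3 UMIs, Cxcl2 (1.11) without myeloid-rich cells, and Naa20 (-0.90) when thinned. Of 825 values of named genes under the settings, 8 reversed and 102 moved beyond their interval. Depth limits sparse genes: those under 20 UMIs were left out of the counts and lists, and a lack of UMIs does not show that a gene was off.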

Other observations

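Genes of cholesterol synthesis and efflux were sparse in the activated cells. Abcg1, an exporter of cholesterol, had 7 UMIs (7 cells) in the chow diet and 19 UMIs (17 cells) in the WD library, a ratio of 2.60 (1.05 to 7.32). Abca1, another exporter, had 1 UMI and 7 UMIs, and the interval of its ratio held 1 (0.862 to 302). Other members of the list were too sparse to read: Insig1 had 8 and 5 UMIs and Srebf2 9 and 4. Of the 18 listed genes, 2 had at least 20 UMIs over both libraries. In the other CD8-negative T cells Abcg1 had 8 and 35 UMIs, a log2 ratio of 1.10, and Nr1h2 19 and 27, a log2 ratio of -0.49.

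Genes of dividing cells were carried by a handful of activated cells. Mki67 had 3 UMIs (2 cells) in the chow diet and 10 UMIs (4 cells) in the WD library, Birc5 had 5 UMIs (4 cells) and 10 UMIs (3 cells), and in the WD library Mki67 and Top2a met in 2 cells. Hmgb2, which is not limited to dividing cells, stood at 528 and 797 CPM in activated cells against 351 and 347 CPM in the other cells.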
